A study of Mus musculus and Mus musculus
Oryx dammah with 30 samples.

Results

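The 10 genes examined here were *Tex19.1*, its neighbouring paralogue *Tex19.2*, the silencing factor genes *Trim28* and *Zfp57*, and the germline genes *Mael*, *Asz1*, *Tdrkh*, *Piwil2*, *Ddx4* and *Sycp3*. The set was chosen with earlier results of these data known, and its genes were then taken by name, with none dropped for its values. All 10 were found in each of 3 expression tables: C2C12 four-cell NT embryos (53023 genes), C2C12 NT embryos of the DNA replication experiment (53023 genes) and two-cell NT embryos (55364 genes). The tables hold 24 libraries of known α-amanitin state or replication group, out of 30 samples in the series. NT here means fusion of somatic cells with a cell-cycle-arrested embryo, and the question behind the α-amanitin comparisons was which genes were transcribed anew, since α-amanitin, a mushroom toxin, blocks RNA polymerase II.

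All recipient embryos came from C57BL/6 oocytes and DBA/2 sperm, the donor was C2C12, a myoblast line of C3H origin, and every group was arrested with 0.1 µg/ml demecolcine and cultured for 24 h after NT. In the first experiment, pools of 3 embryos received donor cells at 46 hours post insemination (hpi) and were kept with α-amanitin (libraries S16, S18 and S8) or without it (S15, S17 and S7). The replication experiment had 3 libraries of group DR and 3 of group D (D1, D4 and D5), each a pool of 4 embryos without α-amanitin, and which letters stand for embryos that replicated DNA is not stated in the labels. The two-cell experiment had 6 libraries with and 6 without α-amanitin, each a pool of 5 embryos, with NT at 21 hpi (early) or 30 hpi (late). The column names give the α-amanitin state but not early or late, so its libraries are described as an NT set (Am1 to Am3 with α-amanitin, NT1 to NT3 without) and an R set (RAm1 to RAm3 with α-amanitin, R3, r1 and r2 without). Each library is a pool of whole embryos that holds maternal RNA, RNA of the embryo's own nuclei and RNA of the donor nuclei, so a lower level per cell and fewer contributing nuclei cannot be told apart, and strains were not separated.

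Germ cells defend their genome against transposons in several layers. TEX19.1 is a germline and placental protein that limits retrotransposon activity and binds the ubiquitin ligase UBR2, which recognises destabilising N-terminal residues. In the piRNA pathway, small RNAs guide PIWI proteins such as PIWIL2 to transposon transcripts, with MAEL, ASZ1, TDRKH and the RNA helicase DDX4 (mouse VASA) acting in piRNA production or in the granules where it takes place, while SYCP3 builds the axis of meiotic chromosomes. TRIM28 (KAP1) is the corepressor through which KRAB zinc finger proteins, ZFP57 among them, recruit histone H3K9 methylation to retrotransposons and imprinted loci. Several of these transcripts are stored in the oocyte, where TRIM28 and ZFP57 are known maternal factors that keep imprints through cleavage.

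*Tex19.1* (ENSMUSG00000039329.8) lies at chr11:121146143-121148319 of mm10 on the plus strand, and *Tex19.2* (ENSMUSG00000039337.3) at chr11:121116215-121118677 on the minus strand. The genes are 27465 bases apart, with 0 annotated genes wholly between them, and are transcribed away from each other. Of 945 aligned coding bases, 77.0% were identical. Of the distinct 25-base stretches of *Tex19.2* transcripts, 7.76% also occurred in *Tex19.1*, and of 50-base stretches 2.50%, so reads could be shared between the pair over a small part of their length. The other loci were *Trim28* (chr7:12999114-13031035, plus strand), *Zfp57* (chr17:37001163-37010635, plus), *Mael* (chr1:166201201-166238747, minus), *Asz1* (chr6:18050964-18109061, minus), *Tdrkh* (chr3:94413273-94434668, plus), *Piwil2* (chr14:70372477-70429383, minus), *Ddx4* (chr13:112598333-112652475, minus) and *Sycp3* (chr10:88459569-88473236, plus). All 10 are protein-coding genes. Exons of *Sycp3* overlap exons of *Chpt1* on the opposite strand over 660 bases (52.2% of its exonic length), and those of *Tdrkh* overlap *Oaz3* over 2255 bases (36.7%). The library kit does not mark strand, so reads of these overlaps cannot be told apart and values of *Sycp3* and *Tdrkh* are less certain.

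The bases before the start sites are shown for the Tex19 pair, whose members differed in level, and for *Mael*, *Sycp3* and *Ddx4*, chosen for holding both motifs searched. Each run is the 250 bases before the RefSeq start on GRCm38.p6, 5′ to 3′ on the gene's strand, with CACGTG (the E-box, the same on both strands) and TCCCGC or its complement GCGGGA (an E2F6-type motif) in capitals. No matches overlapped in these windows.
Tex19.1: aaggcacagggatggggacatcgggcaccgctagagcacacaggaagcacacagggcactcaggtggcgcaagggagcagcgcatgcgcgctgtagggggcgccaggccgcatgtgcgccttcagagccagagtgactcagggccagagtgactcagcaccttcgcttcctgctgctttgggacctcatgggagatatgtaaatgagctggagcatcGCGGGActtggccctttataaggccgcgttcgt
Tex19.2: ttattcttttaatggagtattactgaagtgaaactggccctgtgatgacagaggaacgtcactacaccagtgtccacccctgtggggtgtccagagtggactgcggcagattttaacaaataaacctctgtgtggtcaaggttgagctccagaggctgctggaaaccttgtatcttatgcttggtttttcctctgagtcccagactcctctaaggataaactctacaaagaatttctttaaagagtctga
Mael: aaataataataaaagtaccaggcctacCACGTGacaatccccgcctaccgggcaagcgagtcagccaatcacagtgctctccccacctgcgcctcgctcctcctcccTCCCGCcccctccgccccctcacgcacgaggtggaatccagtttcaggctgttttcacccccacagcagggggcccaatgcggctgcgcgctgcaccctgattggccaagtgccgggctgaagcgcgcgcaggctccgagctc
Sycp3: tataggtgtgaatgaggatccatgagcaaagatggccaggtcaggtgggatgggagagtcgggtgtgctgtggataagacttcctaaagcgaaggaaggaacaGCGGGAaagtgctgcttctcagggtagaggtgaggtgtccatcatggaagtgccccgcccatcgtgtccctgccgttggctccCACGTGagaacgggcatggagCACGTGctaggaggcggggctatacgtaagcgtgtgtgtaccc
Ddx4: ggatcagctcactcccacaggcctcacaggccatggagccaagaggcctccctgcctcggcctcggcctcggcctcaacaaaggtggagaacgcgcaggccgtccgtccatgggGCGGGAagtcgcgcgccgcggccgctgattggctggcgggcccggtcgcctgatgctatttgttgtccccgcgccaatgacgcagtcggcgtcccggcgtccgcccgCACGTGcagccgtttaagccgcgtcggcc
They lie at chr11:121145893-121146142 (plus strand), chr11:121118678-121118927 (minus), chr1:166238745-166238994 (minus), chr10:88459337-88459586 (plus) and chr13:112652311-112652560 (minus). The *Tex19.1* window held 15 CpG dinucleotides and 1 E2F6-type match, 33 bases before the start, whereas the *Tex19.2* window held 2 CpG and a match of neither motif. The *Mael*, *Sycp3* and *Ddx4* windows each held at least 1 match of both motifs, and *Sycp3* had 2 E-boxes, 64 and 43 bases before its start. The *Asz1* and *Tdrkh* windows, not shown, held 0 matches of either, that of *Trim28* held 2 E2F6-type matches and 0 E-boxes, and 1 of 3 windows of *Zfp57* held an E2F6-type match. Among the 32851 promoter windows of this length in the RefSeq table, 6.02% held the E-box, 16.9% the E2F6-type motif and 1.45% both, and the median CpG count was 6. Of the 10 genes, 9 had at least 1 window in the table, *Piwil2* being the gene without one. Of these 9, 3 held an E-box and 6 an E2F6-type match, and of their 11 windows, 3 and 6. Both motifs hold a CpG, and most of these windows held more CpG than the median. The shares over all promoters are therefore not a matched background.

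Expression values were FPKM, fragments counted on a gene, divided by its exon length and by the library's total. Gene reads per library numbered 1136771 to 3101002 in the C2C12 table, 2602780 to 19170641 in the replication table and 4364336 to 10060473 in the two-cell table. A gene entered the limma test if 3 or more libraries reached 1 FPKM, and the test ran on log2(FPKM + 1), a scale on which changes of weakly expressed genes come out smaller. A differentially expressed gene (DEG) had a Benjamini-Hochberg adjusted p below 0.05 together with a 4-fold or larger change. All 10 oocyte and early embryo markers were detected in each table, with a summed FPKM of 8726 to 9925 without and 12197 to 16108 with α-amanitin in the C2C12 table. The summed FPKM of 8 cumulus cell markers there was 14.8 to 31.6, with 5 markers at 0 in all 6 libraries, and that of 10 myoblast markers was 174 to 1920. Among the two-cell libraries, RAm1 to RAm3 stood apart: Pearson's r of log2(FPKM + 1) across genes ranged from 0.885 to 0.960 within a group of a set but from 0.638 to 0.938 between sets of the same α-amanitin state. The oocyte marker sum was 1538 to 3334 in RAm1 to RAm3, against 6919 to 12335 in the other 9 libraries. *Dppa3* made up most of the sum in those 9, at 6623 to 12248, and was at 689 to 1298 in RAm1 to RAm3. The sum therefore does not speak for oocyte markers in general. *Zp3* was at 11.7 to 29.5 in RAm1 to RAm3, 14.1 to 20.0 in NT1 to NT3, 42.7 to 63.6 in Am1 to Am3 and 56.3 to 70.6 in R3, r1 and r2. The myoblast marker sum was lowest in R3, r1 and r2 (128 to 441), beside 1069 to 1416 in RAm1 to RAm3, 2014 to 2194 in Am1 to Am3 and 838 to 4064 in NT1 to NT3. In RAm1 to RAm3 the share of FPKM on spike-ins was 13.9% to 18.5%, against 5.82% to 16.1% elsewhere. The part of these differences in the results was not tested, and two-cell results are therefore given with and without the R set.

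*Tex19.1* rose strongly in C2C12 four-cell NT embryos without α-amanitin, and *Tex19.2* was detected in every library without α-amanitin and in none with it. The other 8 genes, *Trim28* included, did not pass the test. In the 3 libraries with α-amanitin (S16, S18 and S8), the FPKM of *Tex19.1* was 2.93, 1.88 and 2.35, from 17, 4 and 7 reads. Without α-amanitin (S15, S17 and S7) it was 54.6, 66.6 and 77.3, from 233, 228 and 313 reads. The groups were far apart, with the lowest untreated library far above the highest treated one, and the mean was 66.2 ± 11.3 (SD, n = 3) against 2.39 ± 0.525 (SD, n = 3), a 27.7-fold difference of means. limma put the rise at 4.31 log2 units, with a standard error of 0.33 and an adjusted p of 0.00104, the 33rd largest rise of 9884 genes tested. The median of all genes was 0.37 as deposited and 0.13 after median-of-ratios scaling, small beside this rise.

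*Tex19.2*, the less studied testis paralogue, was at 0 in S16, S18 and S8, where 3 reads would have been an FPKM of 0.473, 1.29 and 0.923. In S15, S17 and S7 its FPKM was 1.29, 3.47 and 5.88, from 6, 13 and 26 reads, so it was low and S15 was no higher than the 3-read level of S18. Against that level averaged over the treated libraries, the untreated mean of *Tex19.2* was at least 3.96-fold higher, and limma gave 2.05 log2 units with a standard error of 0.45 (adjusted p = 0.0240). The call was lost without library S18 (adjusted p = 0.0620), without S8 (adjusted p = 0.0548) and when no low-value filter was used (adjusted p = 0.118), and without any 1 of the untreated libraries the gene failed the filter. After median-of-ratios scaling the change was 1.93, under 4-fold. With 0 in S16, S18 and S8, *Tex19.2* could pass the filter only through the untreated libraries. Its direction and lack of overlap were thereby fixed in advance, and its p-value is no independent support.

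These 2 genes were 2 of the 10 that met both criteria, where 6.20% of all tested genes were called higher (6.57% in either direction). That share changed with the libraries kept, since the 649 DEGs became 60 without S7 and 889 without S16. Genes called higher numbered 613 with all libraries. They numbered 55, 78 and 122 without the untreated S7, S15 or S17, and 439, 447 and 836 without the treated S18, S8 or S16. Leaving out an untreated library also cut the genes tested from 9884 to between 8760 and 8827. *Tex19.1* and *Tex19.2* were also the only 2 of the 10 whose groups did not overlap, which the filter had fixed for *Tex19.2*. Of all genes, 27.6% did not overlap in this direction. *Trim28*, the corepressor gene, had an FPKM of 24.0, 19.0 and 16.2 in S16, S18 and S8 and of 21.3, 24.1 and 32.2 in S15, S17 and S7. Its groups overlapped, and its log2 change of 0.37 (95% confidence interval −0.34 to 1.08, adjusted p = 0.470 from limma) equalled the median of all genes. *Zfp57* was near the detection limit, at 0.852, 1.16 and 0 with and 0.696, 1.01 and 1.95 without α-amanitin (log2 change 0.44, adjusted p = 0.520). *Trim28* was thus present in every library of both states, while the gene of its KRAB partner was barely detected.

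**Figure D1:**
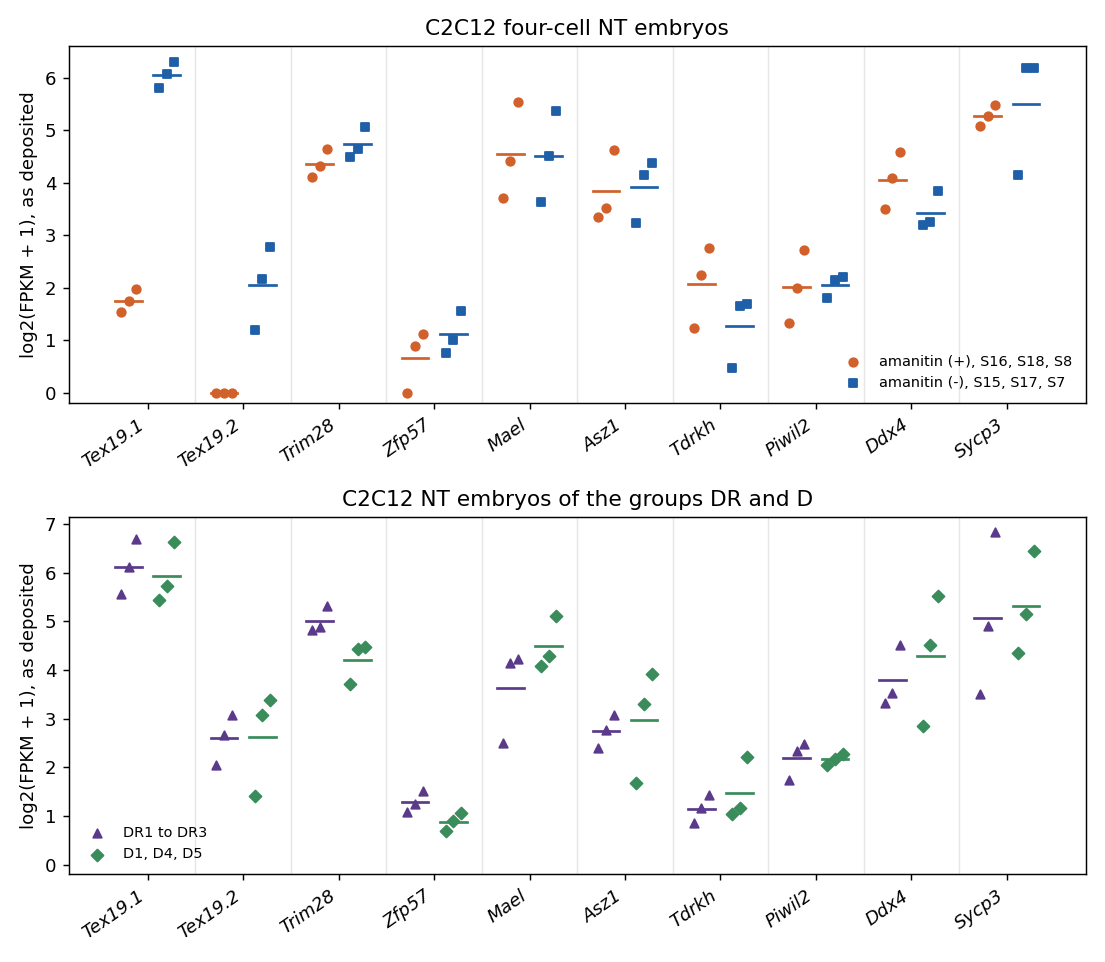
FPKM of the 10 genes on a log2(FPKM + 1) axis in each library of the C2C12 table (top, circles with and squares without α-amanitin) and of the replication table (bottom, triangles DR and diamonds D), with a bar at the mean of each group's log values. In the top panel only *Tex19.1* and *Tex19.2* have groups that do not overlap, and in the bottom panel *Tex19.1* lies between 42.0 and 102 FPKM in all 6 libraries.

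The germline genes of the piRNA pathway and meiosis were already present with α-amanitin. *Mael*, which acts in piRNA-directed silencing, had 12.1, 20.3 and 45.4 FPKM in S16, S18 and S8, and 11.4, 40.1 and 21.9 in S15, S17 and S7. *Sycp3* had 32.9, 37.6 and 43.8 with α-amanitin, and 16.7, 71.3 and 71.7 without it. Both genes were thus expressed in every library, and their groups overlapped. *Ddx4*, the VASA helicase gene, had 10.3, 23.1 and 16.1 with and 13.4, 8.52 and 8.13 without α-amanitin, and *Asz1*, a mitochondrial piRNA factor gene, 9.23, 23.6 and 10.5 with and 8.38, 16.8 and 19.6 without. *Piwil2* lay between 1.497 and 5.60 and *Tdrkh* between 0.376 and 5.73 over the 6 libraries. The log2 changes of these 6 genes ran from −0.81 for *Tdrkh* to 0.22 for *Sycp3*, and their adjusted p-values from 0.333 to 0.972. Their 95% confidence intervals were wide, for *Mael* from −1.33 to 1.23 and for *Sycp3* from −0.97 to 1.41, so a 2-fold rise of either gene lay inside its interval.

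The wider pathways gave few calls in the C2C12 comparison. Of 27 further piRNA pathway genes, 15 were tested and 0 passed both criteria (median change 0.33 against 0.37 for all genes). Of 21 tested genes of the meiosis and germline list, 0 were DEGs, and *Sycp1* (log2 change −1.40, adjusted p = 0.0383), which codes for a synaptonemal complex protein, and *Tex101* (log2 change −1.46, adjusted p = 0.0374) fell by less than 4-fold. Both were named after their values were seen. Among 24 tested TRIM28 partners and silencing genes, with a median of 0.66, 2 were DEGs, beside 6.57% of all genes. *Zfp809*, the KRAB zinc finger gene for proviral silencing, rose from 2.58 ± 1.36 to 32.2 ± 3.08 FPKM (SD, n = 3 each, log2 change 3.29, adjusted p = 0.00461 from limma), and *Mphosph8*, a HUSH complex gene, from 4.81 ± 1.89 to 22.4 ± 1.62 (log2 change 2.06, adjusted p = 0.0132).

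In two-cell NT embryos, *Tex19.1* was again higher in every library without α-amanitin, in both sets of libraries, and it was joined by *Trim28*, *Piwil2* and *Ddx4*, whose rise rested on the R set. With α-amanitin, the FPKM of *Tex19.1* was 3.06, 4.27 and 4.15 in Am1 to Am3 and 0.452, 0.484 and 0 in RAm1 to RAm3. Without α-amanitin it was 22.6, 21.3 and 12.4 in NT1 to NT3 and 32.5, 26.1 and 40.8 in R3, r1 and r2. The 6 untreated libraries lay above the 6 treated ones, with means of 25.9 ± 9.79 and 2.07 ± 1.98 (SD, n = 6), a 12.5-fold difference. It was the 1 gene of the 10 without overlap in this direction, where 35.4% of all genes had none. *Tex19.2* was at 0 in 5 treated libraries and at 0.0786 in Am2, and it reached 1.51, 0.565 and 1.85 in R3, r1 and r2 but no more than 0.250 in NT1 to NT3. It failed the filter on low FPKM and was not tested in the main fit. Without the filter, on the spike-in scale described below, limma gave *Tex19.2* 1.00 log2 units with a standard error of 0.39 (adjusted p = 0.0627).

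The two-cell table holds 47 ERCC spike-ins, synthetic RNAs that are added to a sample before the library is made, with a value in every library, and the fit used FPKM scaled to them, as the study's methods name this normalization. On this scale 4 of the 9 genes tested were DEGs, all higher without α-amanitin, where 34.2% of all 17196 genes were called higher and the median log2 change of all genes was 1.49. In log2 units with standard errors, limma gave 4.29 ± 0.54 for *Tex19.1* (adjusted p = 2.39e-05), 2.67 ± 0.65 for *Trim28* (adjusted p = 0.00158), 2.44 ± 0.68 for *Ddx4* (adjusted p = 0.00427) and 2.19 ± 0.48 for *Piwil2* (adjusted p = 0.000848). *Sycp3* (1.94, adjusted p = 0.0236) and *Tdrkh* (1.39, adjusted p = 0.0481) had an adjusted p under 0.05 without reaching 4-fold, which makes 6 of 9 by adjusted p alone against 71.4% of all genes, and *Zfp57*, *Mael* and *Asz1* had changes of 1.09, 0.41 and 0.21 with adjusted p-values from 0.0918 to 0.660. *Ddx4* came out under 4-fold without RAm3 (1.96) and *Piwil2* without r1 (1.98). The adjusted p of *Sycp3* rose to 0.0606 without RAm1 and 0.0595 without RAm3, and that of *Tdrkh* lay between 0.0866 and 0.116 without any 1 of the 6 R set libraries. For *Zfp57* it ranged from 0.0191 to 0.211 when 1 library was left out. The scale decides much of this. Of all DEGs, 99.5% were higher with spike-in scaling, 87.5% with FPKM as deposited (median log2 change 0.67) and 53.3% after median-of-ratios scaling (median 0.24), and the number of the 9 genes called was 4, 1 and 1, with *Tex19.1* higher by 3.35 and 2.89 in the last 2. Of all 17196 genes, 11.1% and 5.11% were called higher on those 2 scales.

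**Figure D2:**
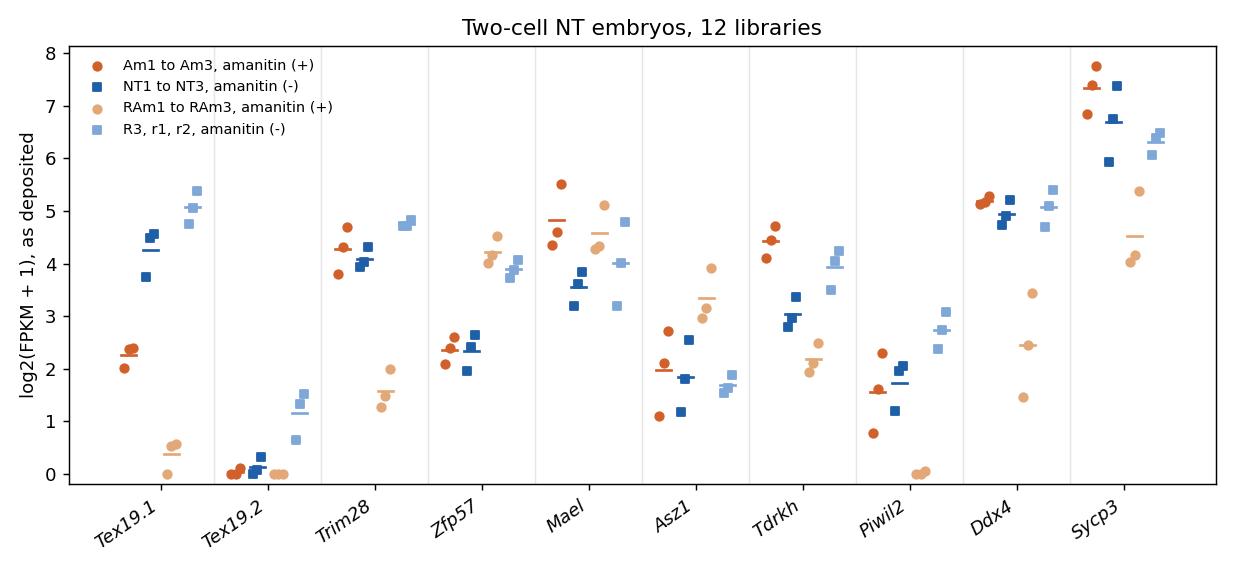
FPKM of the 10 genes on a log2(FPKM + 1) axis in the 12 two-cell libraries, with circles for libraries with and squares for those without α-amanitin, dark for the NT set and light for the R set, and bars at the means of the log values. *Tex19.1* squares lie above *Tex19.1* circles in both sets, whereas those of *Tex19.2*, *Trim28*, *Tdrkh*, *Piwil2*, *Ddx4* and *Sycp3* do so in the R set only.

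*Trim28* differed between the sets in the treated libraries. Its FPKM was 18.8, 13.0 and 24.8 in Am1 to Am3 and 15.4, 19.0 and 14.2 in NT1 to NT3, which overlap. In RAm1 to RAm3 it was 1.40, 3.00 and 1.79, against 25.2, 27.2 and 25.4 in R3, r1 and r2, a 12.6-fold difference of means. *Ddx4* showed the same arrangement, with 35.2, 37.8 and 34.0 in Am1 to Am3, 29.0, 36.0 and 25.5 in NT1 to NT3, 9.90, 4.43 and 1.76 in RAm1 to RAm3, and 41.4, 25.01 and 33.3 in R3, r1 and r2. *Piwil2* was at 3.89, 2.07 and 0.703 in Am1 to Am3 and 2.89, 3.13 and 1.28 in NT1 to NT3. It was at 0, 0.0428 and 0 in RAm1 to RAm3, the second from 2 reads, and at 4.20, 7.49 and 5.69 in R3, r1 and r2. Each of these 3 genes was therefore lower in RAm1 to RAm3 than in all 9 other libraries. In FPKM as deposited, 7 of the 10 genes had R set groups that did not overlap, with the untreated libraries higher, where 58.1% of all genes did.

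*Sycp3* and *Tdrkh* were also lowest in RAm1 to RAm3. *Sycp3* had 167, 115 and 215 FPKM in Am1 to Am3, 107, 59.7 and 166 in NT1 to NT3, 16.9, 40.5 and 15.3 in RAm1 to RAm3, and 88.1, 65.8 and 82.7 in R3, r1 and r2. *Tdrkh*, whose protein binds PIWI proteins, had 16.2, 20.8 and 25.2, then 5.97, 6.76 and 9.29, then 2.84, 4.62 and 3.33, and 10.3, 17.8 and 15.6 in the same order. In the NT set, every *Tdrkh* library without α-amanitin was thus below every one with it, the opposite of the R set. *Zfp57*, *Mael* and *Asz1* were not lowest in RAm1 to RAm3 in FPKM as deposited. *Zfp57* had 21.96, 15.05 and 16.8 FPKM there, beside 13.7, 12.2 and 15.7 in R3, r1 and r2 and 2.86 to 5.26 in the NT set. After spike-in scaling, the R set groups of *Zfp57* no longer overlapped, with 7.80 to 10.6 in RAm1 to RAm3 and 22.9 to 34.9 in R3, r1 and r2. *Mael* had 19.05, 18.4 and 33.8 there, within the range of 8.12 to 44.7 over all 12 libraries, with each of Am1 to Am3 above each of NT1 to NT3, and *Asz1* had 7.86, 14.1 and 6.83, the highest of the 12 libraries.

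Fitted within the sets on the spike-in scale, the R set gave 6 DEGs of 9 genes, where 54.3% of all genes were called higher with a median log2 change of 2.20. They were *Tex19.1* (log2 change 5.89), *Trim28* (4.75), *Ddx4* (4.35), *Sycp3* (3.73), *Piwil2* (3.67) and *Tdrkh* (3.43), with limma adjusted p-values of at most 3.35e-06. *Zfp57* (1.56, adjusted p = 0.000911) and *Mael* (1.34, adjusted p = 0.0152) rose by less than 4-fold and by less than the median gene, so that 8 of 9 rose by adjusted p alone against 76.2% of all genes. The NT set gave 1 DEG of 9, *Tex19.1* (2.69 ± 0.41 log2 units, estimate and standard error, adjusted p = 0.000844), where 7.83% of all genes were called higher with a median of 0.80. The other 8 lay between −0.64 for *Tdrkh* and 0.71 for *Piwil2* in the NT set, with adjusted p-values from 0.132 to 0.803. The difference between the sets was itself tested as an interaction, and 7 of the 9 genes had an adjusted p under 0.05 with a larger rise in the R set, where 50.5% of all genes did so and the median difference was 1.42. *Trim28* (4.15), *Tdrkh* (4.06), *Ddx4* (3.81), *Sycp3* (3.57), *Tex19.1* (3.21) and *Piwil2* (2.95) differed by more than that median, and *Mael* (1.85) by slightly more.

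The scaling changed the size, and for some genes the direction, of the R set values. *Tex19.1*, *Trim28*, *Piwil2* and *Ddx4* remained higher without α-amanitin in the R set with an adjusted p under 0.05 under all 3 scalings. The log2 changes of *Trim28* there were 4.75 with spike-ins, 3.17 as deposited and 2.04 after median-of-ratios scaling, those of *Ddx4* were 4.35, 2.62 and 1.38, and those of *Piwil2* were 3.67, 2.72 and 2.35. *Sycp3* and *Tdrkh* fell under 4-fold in the R set as deposited (1.79 and 1.74) and no longer passed the test after median-of-ratios scaling (0.41, adjusted p = 0.402, and 0.53, adjusted p = 0.153). *Zfp57* and *Mael* turned from 1.56 and 1.34 to −1.68 (adjusted p = 0.000147) and −1.93 (adjusted p = 0.00183) after median-of-ratios scaling, so their direction in the R set depends on the scaling. *Asz1* was negative under all 3, at −0.036, −1.66 and −2.85, with an adjusted p of 0.951, 0.00514 and 9.85e-05. *Tex19.1* in the NT set was higher by 2.69, 1.999 and 1.75, with adjusted p-values of 0.000844, 0.00148 and 0.00693. As deposited and after median-of-ratios scaling it was thus under 4-fold and no longer a DEG of the NT set. *Tdrkh* in the NT set had log2 changes of −0.64, −1.38 and −1.57 under the 3 scalings, with an adjusted p of 0.132, 0.00750 and 0.00890, and *Mael* had −0.51, −1.28 and −1.48, with an adjusted p of 0.387, 0.0547 and 0.0442. The difference between sets kept an adjusted p under 0.05 under all 3 scalings for *Tex19.1*, *Trim28*, *Piwil2*, *Ddx4* and *Tdrkh*, but not for *Sycp3* after median-of-ratios scaling (adjusted p = 0.103). For *Mael* it was lost as deposited (0.70, adjusted p = 0.363) and changed sign after median-of-ratios scaling (−0.45, adjusted p = 0.593). On that last scale the difference was negative for *Zfp57* (−1.47, adjusted p = 0.00855) and *Asz1* (−2.57, adjusted p = 0.00540).

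**Figure D3:**
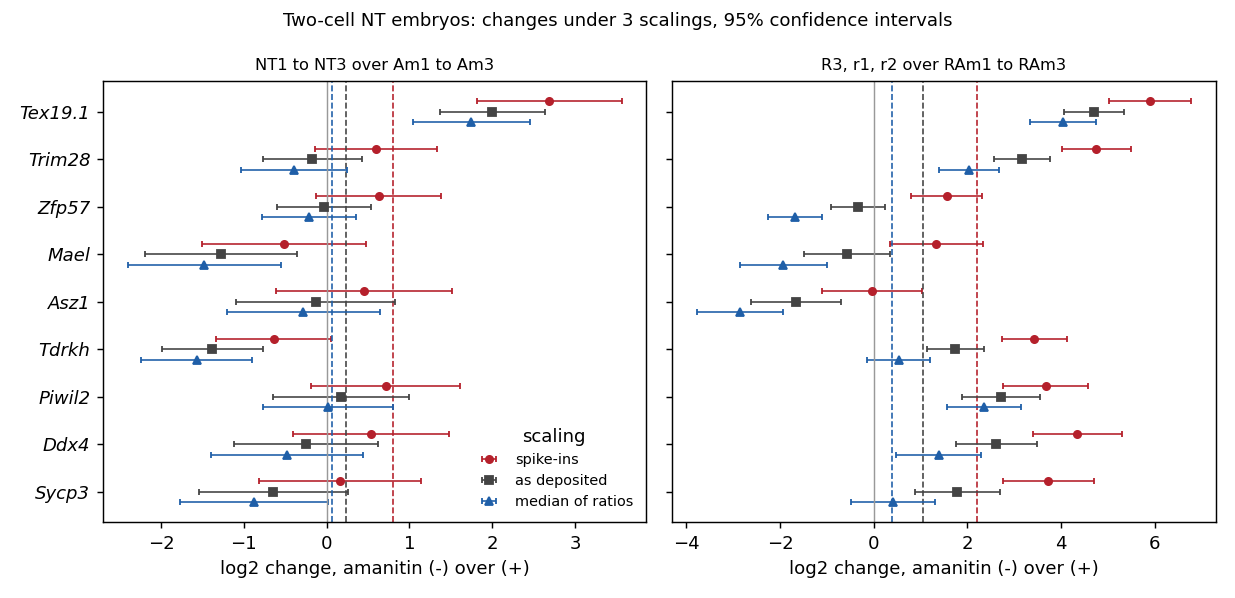
Log2 changes of the 9 tested genes without over with α-amanitin and their 95% confidence intervals in the NT set (left) and the R set (right), with FPKM scaled to spike-ins, as deposited or by the median of ratios. Dashed lines mark the median of all tested genes on each scale, and *Tex19.1* lies to the right of all of them in both panels.

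The wider lists had medians near that of all genes in two-cell embryos, except for a higher one among the TRIM28 partners. The log2 changes and calls that follow are on the spike-in scale unless stated. Of 20 tested piRNA pathway genes, 8 were DEGs and all 8 were higher, beside 34.2% of all genes (median log2 change 1.62 against 1.49 for all genes), among them *Gtsf1l* (4.75), *Fkbp6* (4.38), *Btbd18* (3.84), *Wdr77* (3.40) and *Prmt5* (2.63). *Fkbp6*, a piRNA biogenesis chaperone gene, went from 5.18 ± 5.57 to 40.5 ± 14.4 in FPKM as deposited (SD, n = 6 each). Its adjusted p was 8.09e-05 from limma on the spike-in scale. Of 26 tested TRIM28 partners and silencing genes, 15 were DEGs, all higher (median 2.22), led by *Zfp809* (4.55), *Sumo2* (4.41), *Dppa3* (3.19), *Pphln1* (3.17) and *Morc3* (3.01). *Zfp809* was called in the C2C12 comparison too and in both sets of the two-cell experiment (3.33 in the NT set, adjusted p = 0.00292, and 5.76 in the R set, adjusted p = 1.71e-06), the pattern seen for *Tex19.1*. Of 26 tested meiosis and germline genes, 5 were DEGs, *Rpl10l* (4.68), *Hormad1* (4.04), *Nanos3* (2.86), *Majin* (2.69) and *Sycp1* (2.26), with a list median of 1.25 under that of all genes. In the R set 13, 22 and 15 genes of these 3 lists were called higher, where 54.3% of all genes were, and in the NT set 3, 1 and 3, where 7.83% were. The calls shrank to 4, 2 and 2 higher with FPKM as deposited and to 3, 2 and 1 after median-of-ratios scaling, where 11.1% and 5.11% of all genes were called higher. After median-of-ratios scaling the median of the meiosis list turned to −0.43 and 3 of its genes were called lower, beside 4.47% of all genes. The piRNA pathway gene *Kif17* was called lower on both of these scales (−2.07 and −2.58) and was named after its values were seen. *Zfp809* (3.40 and 2.75), *Fkbp6* (3.42 and 3.00) and *Rpl10l* (3.65 and 3.15) were among those called higher on both scales.

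**Figure D4:**
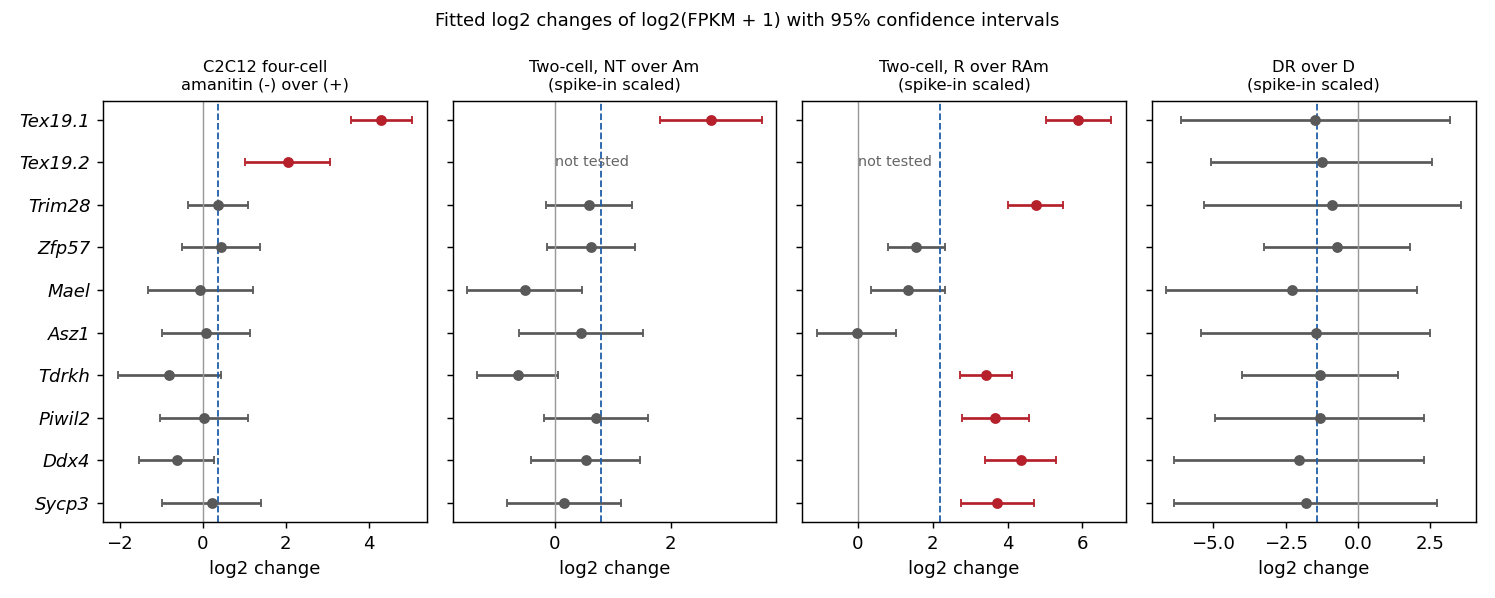
Fitted log2 changes with 95% confidence intervals for the 10 genes in the C2C12 comparison, the NT and R sets of the two-cell experiment and DR over D, except that *Tex19.2* was not tested in the two-cell sets. Red points met both DEG criteria, and the dashed line is the median of all tested genes. *Tex19.1* is red in the first 3 panels, and in the fourth no gene is red and every interval spans 0.

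None of the 10 genes passed the test between groups DR and D of the replication experiment. *Tex19.1* was high throughout, with an FPKM of 67.9, 102 and 45.9 in DR1 to DR3 and 51.9, 97.5 and 42.0 in D1, D4 and D5, and *Tex19.2* was detected in all 6 libraries, at 3.16, 7.47 and 5.35 and at 1.65, 7.45 and 9.36. The groups overlapped for both genes. *Trim28* was at 39.0, 28.4 and 27.2 in DR and at 20.6, 21.1 and 12.02 in D. *Zfp57* was low, at 1.37, 1.86 and 1.12 in DR (11 to 30 reads) and at 0.610, 1.09 and 0.871 in D (14 to 79 reads). *Trim28* and *Zfp57* were the 2 of the 10 genes whose groups did not overlap as deposited with DR higher, where 8.21% of all genes did so, and both overlapped after spike-in scaling. The spread within groups differed between the germline genes. *Sycp3* ran from 10.3 to 113 in DR and from 19.5 to 85.7 in D, whereas *Piwil2* ran from 2.36 to 4.56 and from 3.12 to 3.82.

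With FPKM scaled to the 19 spike-ins found in all 6 libraries, 0 of the 10 genes and 0.00% of the 14570 genes tested were called by limma, while 88 genes (0.604%), all lower in DR, were below an unadjusted p of 0.05. That number was 897 as deposited, 812 after median-of-ratios scaling, and 0 (without DR1 or D1) to 2665 (without D5) when 1 library was left out. limma-voom on approximate reads also called 0, and there 48 genes fell below an unadjusted p of 0.05. The scaling factors ran from 0.0945 to 5.65, so the log2 changes of the 10 genes lay between −2.28 (*Mael*) and −0.72 (*Zfp57*) beside a median of −1.41 for all genes, and the interval of *Tex19.1* reached from −6.13 to 3.18. On FPKM as deposited, *Tex19.1* differed by 0.19 (adjusted p = 0.923) and *Trim28* by 0.80 (adjusted p = 0.788). A difference of several fold in any of the 10 genes was not detectable on the spike-in scale.

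Set side by side, the mean FPKM of *Tex19.1* was 71.9 ± 28.3 in DR, 66.2 ± 11.3 in C2C12 NT embryos without α-amanitin, 63.8 ± 29.6 in D, 33.1 ± 7.38 in the untreated R set and 18.8 ± 5.54 in the untreated NT set (SD, n = 3 each). It was 3.83 ± 0.666 in Am1 to Am3, 2.39 ± 0.525 in C2C12 NT embryos with α-amanitin and 0.312 ± 0.271 in RAm1 to RAm3. The tables were normalized separately, so this order holds only loosely between tables. The first 3 groups did not differ beyond their spread, and each untreated group was above each treated one. *Trim28* was between 16.2 ± 2.47 and 31.5 ± 6.49 in 7 of these 8 groups and 2.06 ± 0.832 in RAm1 to RAm3.

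The genes whose profile was most like that of *Tex19.1* were sought by Pearson's r of log2(FPKM + 1) over the 6 C2C12 libraries and over the 12 two-cell libraries, taking the smaller of the 2 values, among 9018 genes tested in both tables. These were *Pramel4* (smaller r = 0.991), *Gm3139* (0.985), *Pramel5* (0.984), *Gm16427* (0.982) and *Gm2389* (0.981). *Pramel4* went from 2.23 ± 1.55 to 66.5 ± 5.00 FPKM (SD, n = 3 each) in C2C12 NT embryos and from 5.02 ± 5.75 to 175 ± 88.6 (SD, n = 6 each) in two-cell NT embryos. Several of these genes belong to families of near-identical copies, so their single values are uncertain, and the libraries of a table share the same α-amanitin groups. *Tex19.2* failed the two-cell filter and was not compared. Among the other 8 genes examined, *Trim28* was the closest, with 0.678 over the C2C12 and 0.929 over the two-cell libraries, at rank 2432 of 9018, and *Ddx4* the farthest, with −0.700 and 0.892.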

How the data were processed

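Libraries were prepared with a SMART-seq v4 kit, which does not mark strand, and sequenced as pairs. The submitters' processing notes name STAR, Trim Galore, Trimmomatic, cutadapt and featureCounts, with mm10. The authors deposited FPKM values per gene in 3 tables that were normalized separately. Samples were grouped by their labels, 4 columns of per-library values that could not be tied to the samples were not used, and the other samples of the series were not analysed here.

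The 10 genes and all gene lists were chosen with earlier results of these data known. FPKM values were divided by a spike-in factor where the table listed at least 10 spike-ins with a value in every library (the two-cell and replication tables, but not the C2C12 table) and tested as log2(FPKM + 1) with limma 3.58.1 (moderated test with a trend, R 4.3.3) after a filter of at least 1 FPKM in at least 3 libraries. Benjamini-Hochberg adjustment ran over all genes tested. The fits were tested on simulated data. Of the wider lists, DEGs were named, up to 5 for each list in order of log2 change, and the 5 genes most like *Tex19.1* in profile were named. FPKM values of the C2C12 table were whole multiples of the value of 1 read (within 0.001 reads) for at least 99.99% of values, which gave reads. Between 39.9% and 50.4% were whole elsewhere, where reads are approximate. The 3-read levels cover counting error only, and nothing in the labels ties libraries of a group to separate experiments, so p-values and confidence intervals measure the spread between these pools. Sequences and overlaps were read with Biopython 1.88 from RefSeq tables on GRCm38.p6 and the mm10 annotation (GENCODE). A further gene list is not reported here. Alternatives are given in the closing section.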

Additional observations from a re-analysis of the deposited data

Results flagged for a closer look

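The effect of α-amanitin in two-cell NT embryos differed between the R set and the NT set for 7 genes by a test of the difference itself (R set minus NT set, spike-in scale, limma interaction). The log2 differences were 3.21 for *Tex19.1* (adjusted p = 0.000477), 4.15 for *Trim28* (adjusted p = 2.17e-05), 1.85 for *Mael* (adjusted p = 0.0271), 2.95 for *Piwil2* (adjusted p = 0.00101), 3.81 for *Ddx4* (adjusted p = 0.000235), 3.57 for *Sycp3* (adjusted p = 0.000486) and 4.06 for *Tdrkh* (adjusted p = 1.68e-05). The median difference of all genes was 1.42 on this scale, 0.76 with FPKM as deposited and 0.16 after median-of-ratios scaling, and *Mael* lost its call as deposited (0.70, adjusted p = 0.363) and changed sign after median-of-ratios scaling (−0.45, adjusted p = 0.593). The oocyte marker sums, mostly *Dppa3* outside RAm1 to RAm3, were lowest in RAm1 to RAm3. The myoblast marker sums were lowest in R3, r1 and r2 (128 to 441), beside 838 to 4064 in the other 9 libraries. Whether the sets are the early and late embryos of the labels was not tested.

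Within the groups of 6 two-cell libraries, a single library lay apart for 2 of the 20 gene and group combinations, where chance gives about 1 in 20. *Tex19.2* in Am2 (0.0786 FPKM) was the only treated library above 0, so its gap to the nearest other library was the whole range (ratio 1), which 5 values of 0 fix whatever the sixth is. It stood for about 1.5 reads, under the 3-read level of 0.157 FPKM in that library. *Mael* in R3 (26.8 FPKM) lay above the other untreated libraries by a ratio of gap to range of 0.6251.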

How the results depend on the processing

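*Tex19.1* kept its direction and an adjusted p under 0.05 from limma in the C2C12 and the two-cell comparison under every alternative that was run. Leaving out 1 library at a time moved its C2C12 log2 change between 4.19 and 4.44. The number of C2C12 DEGs was 649, fell to 264 without the filter, and ranged from 60 (without S7) to 889 (without S16) when 1 library was left out, with 88 without S15 and 127 without S17. The number of the 10 genes called was 2 in that comparison, 1 without the filter, 1 after median-of-ratios scaling, and 1 to 2 when 1 library was left out. *Tex19.2* was the gene lost. In the two-cell comparison, DEGs numbered 5913, against 10265 with a pseudocount of 0.1, 2178 as deposited, 1647 after median-of-ratios scaling, 9498 in the R set, 1367 in the NT set and 10449 by limma-voom on approximate reads, and 5154 to 6774 when 1 library was left out. Of the 10 genes, 4 were called, but 5 with a pseudocount of 0.1, 6 in the R set, 1 as deposited, 1 after median-of-ratios scaling, 1 in the NT set, and 3 to 5 when 1 library was left out. The replication comparison had 0 DEGs, and 0 to 1 when 1 library was left out (1 without D5).

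The direction of other genes changed in several settings. In the C2C12 comparison median-of-ratios scaling gave −0.21 for *Piwil2*, −0.085 for *Sycp3* and −0.21 for *Asz1*, voom gave 0.014 for *Mael*, and leaving out 1 library gave −0.48 to 0.44 for *Mael*, −0.31 to 0.39 for *Piwil2*, −0.12 to 0.90 for *Sycp3* and −0.15 to 0.48 for *Asz1*. In the two-cell comparison FPKM as deposited gave −0.18 for *Zfp57*, −0.92 for *Mael* and −0.89 for *Asz1*. Median-of-ratios scaling gave −0.95 for *Zfp57*, −1.70 for *Mael*, −0.23 for *Sycp3*, −1.57 for *Asz1* and −0.52 for *Tdrkh*. The R set gave −0.036 for *Asz1*, the NT set −0.51 for *Mael* and −0.64 for *Tdrkh*, and leaving out 1 library −0.053 to 0.44 for *Asz1*. In the replication comparison FPKM as deposited gave 0.19 for *Tex19.1*, 0.80 for *Trim28*, 0.40 for *Zfp57* and 0.025 for *Piwil2*, median-of-ratios scaling 0.14, 0.75 and 0.37 for the first 3, and leaving out 1 library −2.64 to 0.43 for *Trim28*. Beyond the construction of each alternative, the cause was not tested. limma-voom, the R and NT sets and set as a term were added after seeing the data.

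Two-cell replicate numbers gave correlations of deviations between −0.0045 and 0.0784 for same-numbered libraries. Those of differently numbered libraries lay between −0.103 and 0.0483. All were small and the ranges overlapped, so the numbers were not taken as pairs. With a replicate block, DEGs numbered 5904, 4 of the 10 genes were called, and the adjusted p of *Tdrkh* was 0.112. No paired analysis of the C2C12 or replication libraries was run. The C2C12 columns carry no shared numbers, and groups DR and D share only number 1. Untreated and treated C2C12 libraries have adjacent numbers (S7 and S8, S15 and S16, S17 and S18). The labels do not say whether these are pairs, and this was not tested. Planned count-model tests were not run, and limma-voom on reads was run in their place. Low read numbers limit *Tex19.2*, and 3 libraries per group limit every interval.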
